A study of Equus caballus with 19 samples.

Results

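HTR1B, a receptor for serotonin, and ASMT, the enzyme that completes the synthesis of melatonin, were examined in the blood of young horses, as 2 genes of the 1179 that could be paired with a probe of the array. Both were chosen from the study's list of probes that differed between the groups on these same arrays, so the signal in EE-treated against control horses is what selected them, and that difference is given as a description without a test. Each gene was measured by 1 probe, printed once per array, A_69_P000006 for HTR1B and A_69_P089846 for ASMT, and 0 further probes carried the same transcript name. The HTR1B probe is named by a RefSeq transcript, whereas the ASMT probe carries an Ensembl transcript name and its gene symbol comes only from the study's list.

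The study asked how environmental enrichment (EE) affects the behaviour and blood gene expression of prepubertal Welsh foals that were about 10 months old when a treatment of 12 weeks began. The control group was kept in single stalls on shavings, with 3 outings per week to a solitary paddock. Its horses had no physical contact with one another. In the EE group each horse had a large stall with straw to itself by day, and outside those hours the group shared a pasture with an adult mare. Varied food, objects, odours and music were part of the treatment. Handling time was the same in both groups. At the end of the treatment, venous blood was drawn into RNA-stabilising tubes from 9 control horses, of which 6 were males and 3 females, and from 10 EE-treated horses, 4 males and 6 females. Each horse had its RNA hybridised to 1 single-dye array and is 1 replicate. The labels mark control horses with imp and EE-treated horses with enr, followed by the number of the horse. On each array 43803 non-control spots were read, and between 26829 and 30502 of them were marked as well above background.

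Melatonin is made from serotonin by acetylation and then by a methyl transfer, the step that ASMT carries out, mainly in the pineal gland and the retina. HTR1B couples to inhibitory G proteins and lowers cyclic AMP, and it is best known from nerve endings, where it limits the release of serotonin and other transmitters, and from the muscle of blood vessels. In blood most serotonin is carried by platelets, which take it up from the plasma.

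Both transcripts gave a low but measurable signal in blood. The spots of HTR1B and of ASMT were well above background on 19 of the 19 arrays, 9 control and 10 EE. The background-corrected signal of HTR1B lay between 34.3 and 94.9 intensity units, with a median of 48.2, and the local background around its spot was 20.7 ± 2.96 units (SD, n = 19). It was 4.16 to 11.6 times as bright as the dimmest spot that was well above background on the same array. For ASMT the corrected signal lay between 75.7 and 162 units, with a median of 97.2, with a local background of 20.7 ± 2.29 units (SD, n = 19). It was 8.93 to 23.5 times as bright as the dimmest spot of the same array that was well above background. The pixels of the HTR1B spot were 3.05 to 6.55 times as bright as the local background and those of the ASMT spot 4.98 to 10.0 times. These ratios place each probe against the background of its own spot and do not compare the amounts of the 2 transcripts. Whole blood is a mixture of cells, and in it a change in the number of cells of a type and a change in RNA per cell cannot be told apart.

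For the values per horse, signals were multiplied by a factor that brought the 75th percentile of an array's non-control spots to 500, and the log2 was taken. HTR1B ranged from 4.77 (horse imp_476) to 5.80 (horse imp_474) in the control group, with a median of 5.35. In the EE-treated group it ranged from 5.45 (horse enr_646) to 6.21 (horse enr_651), with a median of 5.84. The groups overlapped: 6 of the 10 EE-treated horses lay above every control horse, and 5 of the 9 control horses lay below every EE-treated horse. The lowest control horses were imp_476 and imp_477, which shared a slide, and the highest EE-treated horses were enr_651 and enr_643, on different slides. All 10 EE-treated horses were above the control mean.

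ASMT ranged from 6.05 (horse imp_477) to 6.55 (horse imp_650) in the control group, with a median of 6.33. In the EE-treated group it ranged from 6.50 (horse enr_468) to 7.12 (horse enr_643), with a median of 6.73. Only EE-treated horse enr_468 reached into the control range, where control horses imp_650 and imp_474 lay above it. The other 9 EE-treated horses were above every control horse. After scaling, the spread between horses was similar in both groups for ASMT, while for HTR1B it was wider in the control group. Before scaling it was wider in the EE-treated group for both, with an SD in log2 units of 0.44 against 0.27 for HTR1B and 0.35 against 0.15 for ASMT.

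**Figure D1:**
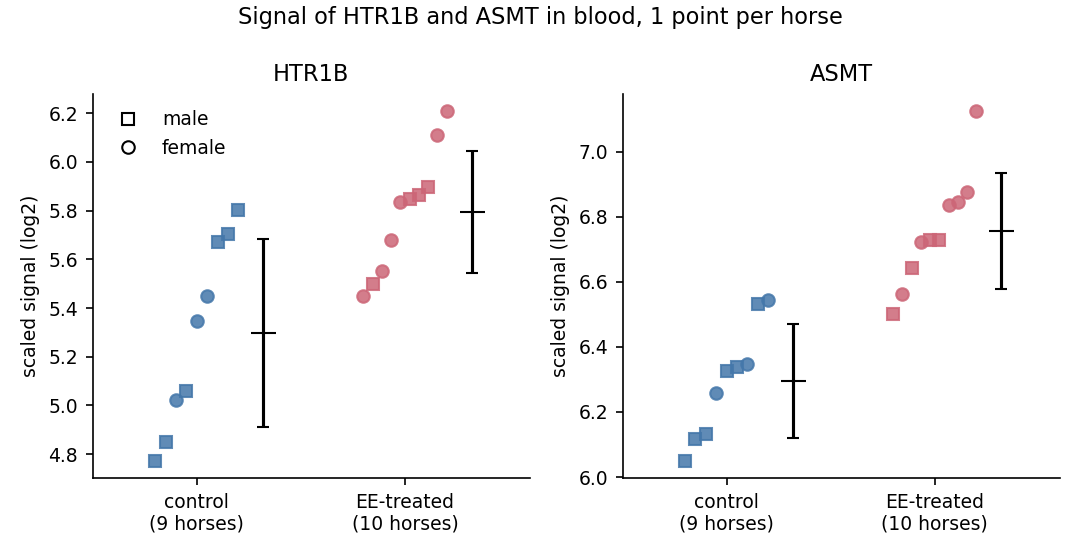
Scaled log2 signal of HTR1B and ASMT in each horse, by group, with squares for males and circles for females, ordered by value within a group. The black marks give the mean and its SD. For ASMT a single EE-treated horse, at 6.50, lies within the control range, and for HTR1B 4 do.

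On average, HTR1B had a log2 signal of 5.30 ± 0.39 (SD, n = 9) in the control and 5.79 ± 0.25 (SD, n = 10) in the EE-treated horses. EE minus control gave 0.50 in log2 units (standard error 0.15, 95% interval 0.19 to 0.81), which is a ratio of 1.41. For ASMT the signal was 6.29 ± 0.17 (SD, n = 9) in the control and 6.76 ± 0.18 (SD, n = 10) in the EE-treated horses. Here the difference was 0.46 (standard error 0.093, 95% interval 0.27 to 0.66), a ratio of 1.38. The intervals of both genes make no allowance for their choice by this same difference. They are therefore no test, and the differences may be too large. Both genes were therefore higher in EE-treated horses on the arrays, whereas the study's list, whose last column is headed as the fold of enriched over control, gives both a value below unity, so the direction found here is opposite to that heading. Control over EE is 0.71 for HTR1B and 0.73 for ASMT, which are the values of that list, so for these genes its column reads as control over EE. In the contrast that selected them, 510 of 43384 probes (1.18%) were higher in EE at an unadjusted p under 0.005 and a ratio of at least 1.2 in limma, and 279 were lower at a ratio of at most 0.8. Without scaling this balance turned over, to 22 higher and 352 lower, and with normexp background correction it was 629 and 104. It was 314 and 330 without control horse imp_470, and 282 and 219 without imp_477. Nothing is read from these counts, because the genes were taken from that contrast. At an adjusted p under 0.05 limma called 0 probes of that contrast, with 5068 at an unadjusted p under 0.05, and the random-variance test of the methods also called 0.

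The arrays of EE-treated horses were on average dimmer than those of control horses. Before scaling, the 75th percentile had a log2 of 9.18 ± 0.26 (SD, n = 9) on control arrays and 8.99 ± 0.36 (SD, n = 10) on EE arrays, a difference of -0.19. Without scaling, HTR1B differed by 0.31 (95% interval -0.062 to 0.68) and ASMT by 0.27 (95% interval -0.031 to 0.58), and the median of all probes moved from 0.064 to -0.12. Relative to the median of all probes, HTR1B was higher in EE-treated horses by 0.43 and ASMT by 0.40, both with and without scaling, which are the same by construction, since scaling shifts every probe of an array alike. With array brightness in the fit, the differences were 0.43 and 0.41. With normexp background correction, whose offset of 50 by itself shrinks the differences of dim probes, they were 0.34 and 0.36, and relative to the median of all probes 0.18 and 0.20.

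Both groups were present on each of the 5 slides, which allows the genes to be compared within a slide. For HTR1B both EE-treated horses lay above the control horses on 5 of the 5 slides, by 0.75, 0.29, 0.54, 0.53 and 0.18 from slide 1 to slide 5. For ASMT the mean was higher in EE-treated horses on 5 of the 5 slides, by 0.76, 0.086, 0.59, 0.51 and 0.35, and on slide 2 the groups overlapped. Slide 1 gave the widest gap for both genes, and it held the 2 control horses with the lowest HTR1B values. With slide as a block, the differences were 0.48 (standard error 0.12) for HTR1B and 0.47 (standard error 0.10) for ASMT. The slides divide the same values that chose the genes, so their likeness is a description and no replication. How many of all probes show the same pattern over the slides was not counted. Position on the slide went with the group, control arrays occupying positions 2 and 4 and EE arrays positions 1 and 3, with horse enr_475 at position 2 as the single exception, so that position and treatment cannot be told apart. The arrays of slide 5 were scanned apart from the others, and on the 16 arrays of scan 1 the differences were 0.53 and 0.49, while scan 2 held 1 control horse and 2 EE-treated horses.

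**Figure D2:**
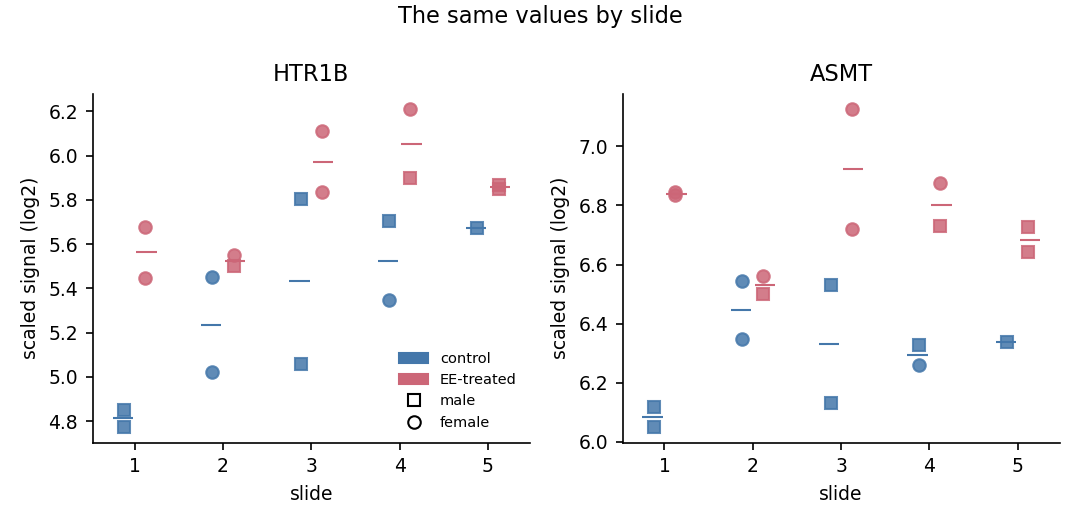
Scaled log2 signal of HTR1B and ASMT by slide, with control horses to the left and EE-treated horses to the right of each slide number. Squares are males, circles are females and short lines are means. EE-treated horses lie above the control horses on 5 slides for HTR1B and on 4 for ASMT. These are the values by which the genes were chosen.

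The sexes were not evenly spread over the groups, so that levels were also taken by sex. The order of the HTR1B means was EE-treated females (5.81 ± 0.31, SD, n = 6), EE-treated males (5.78 ± 0.19, SD, n = 4), control males (5.31 ± 0.47, SD, n = 6) and control females (5.27 ± 0.22, SD, n = 3). No neighbours in that order differed by more than the larger of their SDs, and the gap between EE-treated and control males, 0.467, was about as large as it (0.468). For ASMT the order was EE-treated females (6.83 ± 0.19, SD, n = 6), EE-treated males (6.65 ± 0.11, SD, n = 4), control females (6.38 ± 0.15, SD, n = 3) and control males (6.25 ± 0.18, SD, n = 6). Among these neighbours, EE-treated males and control females were farther apart (0.27) than the larger SD, and the others were not. Within males, HTR1B was 0.47 and ASMT 0.40 higher in EE-treated horses, and within females 0.53 and 0.44.

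The comparison of males with females did not choose the genes and could be tested. With treatment in the fit, HTR1B differed by 0.0024 between males and females (standard error 0.16, 95% interval -0.33 to 0.33, adjusted p = 0.998 in limma). For ASMT, male minus female was -0.16 (standard error 0.091, 95% interval -0.35 to 0.033), which did not pass the test (adjusted p = 0.837 in limma). Neither gene was among the 23 probes of 43384 (0.053%) called in that comparison at an adjusted p under 0.05. The sign for HTR1B turned under several alternatives, its values lying between -0.13 with slide as a block and 0.19 without scaling, and without scaling that for ASMT turned to 0.034. The difference between treatments, in males minus that in females, was -0.066 for HTR1B (standard error 0.33, 95% interval -0.75 to 0.62, adjusted p = 0.991 in limma). For ASMT it was -0.043 (standard error 0.19, 95% interval -0.44 to 0.35, adjusted p = 0.990 in limma). With slide as a block the value for HTR1B was -0.35 and that for ASMT 0.030, and without scaling they were 0.10 and 0.12. For this interaction limma called 0 of 43384 probes (0%) at an adjusted p under 0.05, with 1323 at an unadjusted p under 0.05, and no other tool was run. These intervals are wide, since only 3 control females and 4 EE-treated males were measured.

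HTR1B and ASMT varied together across horses once the group means were subtracted. Because both genes were selected for a difference between the groups, a correlation over the pooled horses would follow from that choice, and it was computed only within groups or after subtracting the group means. Scaling subtracts the same brightness from both genes, which by itself can push r above 0. The p-values below test r against 0, and the r that scaling alone would give was not computed. Before scaling, r was 0.23 in control and 0.89 in EE-treated horses, and with brightness regressed out 0.44 and 0.62. In the control group, after scaling, r was 0.76 (exact permutation test over pairings, p = 0.0194, n = 9) and rho was 0.67 (p = 0.0589). In the EE-treated group r was 0.59 (permutation test, p = 0.0694, n = 10) and rho was 0.53 (p = 0.123). Over all 19 horses, with group means subtracted, r was 0.67 (permutation test within groups, p = 0.00195) and rho was 0.64 (p = 0.00507). After Benjamini-Hochberg adjustment over the 11 correlations given, the p-values of r were 0.0711, 0.127 and 0.0214 in the same order, and those of rho 0.130, 0.225 and 0.0558. All tests were two-sided. The coefficient over 19 horses thus passed the adjustment for r and did not for rho. Of the 11, 6 set the genes against array brightness and cannot be read as tests, as given below, and over the other 5 the adjusted p-values were 0.0485, 0.116 and 0.00975 for r and 0.147, 0.205 and 0.0253 for rho, so that the number of correlations in the family decides whether rho over 19 horses and r in the control group pass.

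Without the 2 horses farthest from the median of HTR1B, r over all horses was 0.56 (permutation test, p = 0.0200). In the control group these were horses imp_476 and imp_477, and without them r was 0.56 (exact permutation test, p = 0.204), with 7 horses left. Without imp_476 alone r was 0.72 (p = 0.0478), without imp_477 alone 0.70 (p = 0.0576) and without imp_474 alone 0.69 (p = 0.0594), so that passing the unadjusted test in the control group rested on single horses. In the EE-treated group, without horses enr_646 and enr_651, r was 0.79 (exact permutation test, p = 0.0167). The slides held 3 or 4 horses each, too few for a correlation within a slide, and with slide means subtracted as well, r over 19 horses was 0.81. On scan 1 alone it was 0.71, with sex means subtracted 0.76, and with array brightness regressed out 0.62. Before scaling, r was 0.23 among control and 0.89 among EE-treated horses, and 0.76 over all horses with group means subtracted.

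**Figure D3:**
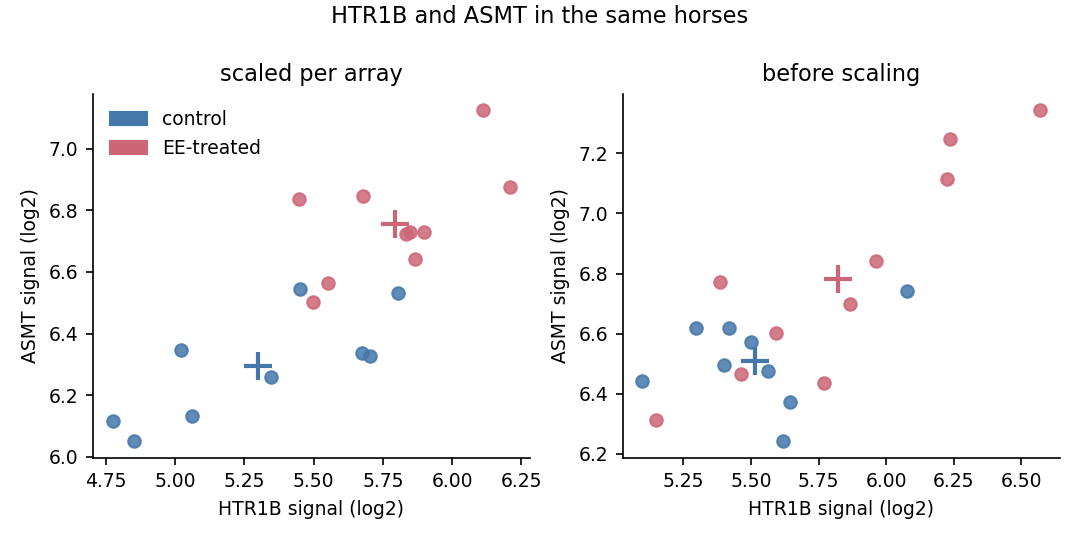
ASMT against HTR1B in the same horses, as log2 signal, on the left after scaling each array and on the right before scaling. Each point is a horse and each cross a group mean. After scaling, r is 0.76 in control horses and 0.59 in EE-treated horses, and before scaling 0.23 and 0.89.

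The scaled level of the genes was also set against the brightness of the array before scaling, a relation chosen after the values were seen. Scaling subtracts the log2 of that brightness from the log2 signal, so scaling by itself pushes the coefficient below 0, and these 6 of the 11 correlations cannot be tested on scaled values. For ASMT in control horses r was -0.83 (n = 9), where an unscaled signal unrelated to brightness would give -0.86 by its spread alone, and for HTR1B in control horses it was -0.71, where that value is -0.69. In EE-treated horses r was 0.012 for HTR1B and -0.27 for ASMT (n = 10), where those values are -0.63 and -0.71. Before scaling, ASMT had 98.2, 95.1 and 106.9 intensity units on the 3 brightest control arrays and 82.9, 75.7 and 90.3 on the 3 dimmest, and HTR1B had 42.8, 45.2 and 67.4 against 50.1, 49.2 and 42.3. With brightness regressed out, r between the genes in the control group was 0.44 (exact permutation test, p = 0.239).

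**Figure D4:**
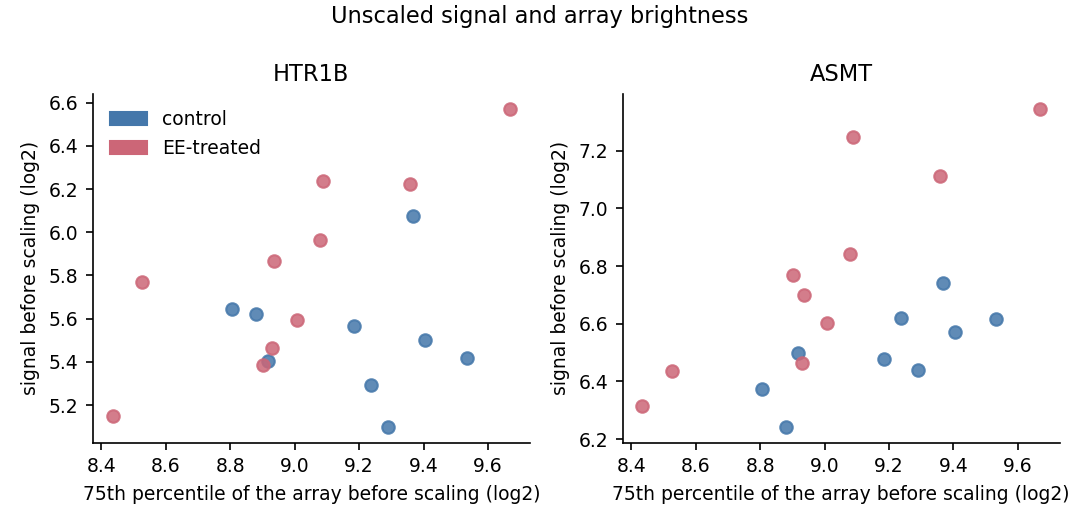
Log2 signal of HTR1B and ASMT before scaling against the log2 of the 75th percentile of the array, with 1 point per horse. On the 3 dimmest control arrays the ASMT signal was 82.9, 75.7 and 90.3 intensity units.

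Among the serotonin receptors listed, 3 of 16 genes could be named on the arrays, HTR1A, HTR2A and HTR4, with 13 probes. HTR1A is an inhibitory receptor of the same class as HTR1B, HTR2A is the receptor through which serotonin acts on platelets, and HTR4 raises cyclic AMP. Of these probes 9 were higher and 4 lower in EE-treated horses, and 0 were called by limma at an unadjusted p under 0.005, 2 having an unadjusted p under 0.05. Over all probes, 60.3% were higher in EE-treated horses, 1.82% (789) were called in either direction and 11.7% had an unadjusted p under 0.05. The HTR4 probe A_69_P002992 was well above background on 19 arrays, with a log2 signal of 4.42 ± 0.39 (SD, n = 9) for control and 4.93 ± 0.63 (SD, n = 10) for EE-treated horses, which differ by 0.51 (standard error 0.23, adjusted p = 0.409 in limma). The other 9 HTR4 probes were well above background on 8 arrays or fewer. HTR1A reached it on 17 arrays with probe A_69_P000511 and on 6 with A_69_P004766, and these probes differed in opposite directions, by 0.33 and -0.23. HTR2A was well above background on 0 arrays.

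Of the listed genes for synthesis, transport and breakdown of serotonin, 4 of 9 could be named, TPH2, SLC6A4, MAOA and MAOB, and 0 of their 8 probes were called, against 1.82% of all probes. TPH2 makes the precursor of serotonin and is best known from neurons. Its probe A_69_P001331 reached the mark for signal well above background on 8 control and 8 EE arrays, with a log2 signal of 3.03 ± 0.35 (SD, n = 9) for control and 4.14 ± 1.17 (SD, n = 10) for EE-treated horses. The difference was 1.11 (standard error 0.38, unadjusted p = 0.00907, adjusted p = 0.300 in limma), and the other TPH2 probe was well above background on 0 arrays. SLC6A4, the transporter by which platelets take up serotonin, had 3 probes, and MAOA, an enzyme that degrades it, had 1 probe. These were well above background on 0 arrays, and the MAOB probes on 1 array or fewer. None of the 10 listed genes for synthesis, receptors and breakdown of melatonin (0 of 10) and of the 4 genes of methyl donor supply (0 of 4) could be named, so that ASMT could not be set beside AANAT, the enzyme that precedes it.

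Among the signalling partners of HTR1B, 2 of 18 genes could be named. S100A10, also called p11, binds HTR1B and carries it to the cell surface. Its probes were bright on every array, and the log2 signal of A_69_P075751 was 15.36 ± 0.12 (SD, n = 9) for control and 15.55 ± 0.19 (SD, n = 10) for EE-treated horses. The difference was 0.19 for this probe and 0.21 for A_69_P075752 (adjusted p = 0.410 and 0.368 in limma). GNAO1, an inhibitory G protein subunit, was well above background on 0 arrays. Of the kynurenine branch, which takes tryptophan away from serotonin, 1 of 9 genes could be named. This was QPRT, which forms a precursor of NAD, with 7.03 ± 0.25 (SD, n = 9) for control and 7.39 ± 0.21 (SD, n = 10) for EE-treated horses, which differ by 0.36 (standard error 0.11, unadjusted p = 0.00438, adjusted p = 0.257 in limma). QPRT took its symbol from the study's list, which was chosen on these arrays, and is no independent evidence. Its call was lost without scaling, with sex or brightness as a covariate, on scan 1 alone and without any 1 of 13 of the 19 horses.

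Over all lists, 10 of 66 genes could be named, with 25 probes. Of these, 20 were higher and 5 lower in EE-treated horses and 1 (QPRT) was called, with 6 at an unadjusted p under 0.05. Over all probes the shares were 60.3% higher, 1.82% called and 11.7% at an unadjusted p under 0.05. Probes of the same gene were counted separately, most often for HTR4, so the 25 probes are not 25 independent members. The median difference was 0.21, against 0.064 over all probes. Of the 25 probes, 11 were well above background on 0 arrays and 4 were well above background on 19 arrays. Under quantile normalization the list's median was 0.051, with 14 probes higher, and without scaling 0.021, with 15, while with the deposited log2 values it was 0.19 and with normexp 0.22, with 25 higher in both. The median of all probes was -0.0019, -0.12, 0.14 and 0.16 in the same order.

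**Figure D5:**
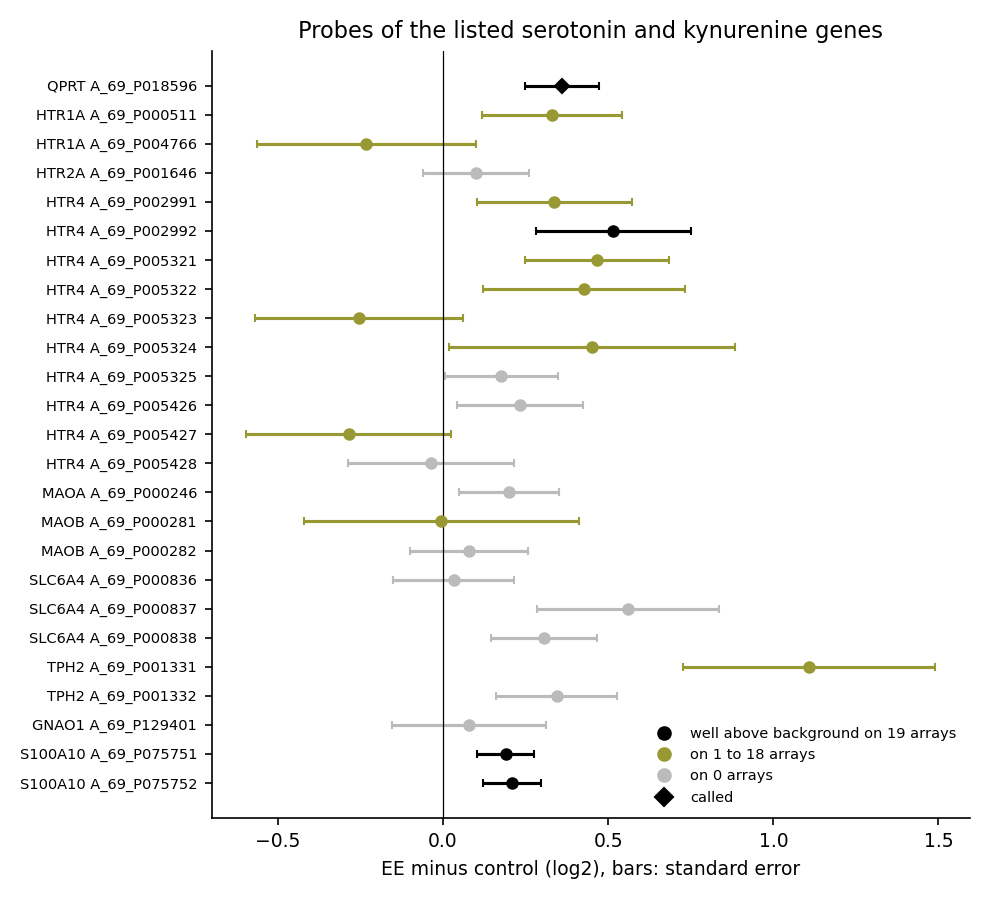
Difference in log2 signal, EE minus control, for each of the 25 probes of the listed genes, with bars for the standard error. The colour gives the number of arrays on which the probe was well above background, and the diamond is the called probe of QPRT, at 0.36.

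Markers of blood cells were measured in the same samples, since both genes could be read from any of them. Of 8 neutrophil genes only S100A12 could be named, with 5 probes, and its summed log2 signal was 16.47 ± 0.48 (SD, n = 9) for control and 17.26 ± 0.60 (SD, n = 10) for EE-treated horses, a difference of 0.79. Its probes differed by 0.77 to 0.80, and 4 of 5 were called at an unadjusted p under 0.005, against 1.82% of all probes (adjusted p 0.243 to 0.268 for the 5 probes in limma), but S100A12 too was named from the study's list. With group means subtracted, neither gene passed a test of correlation with it. The coefficient over 19 horses was -0.24 for HTR1B (permutation p = 0.317, adjusted p = 0.435, rho -0.18, p = 0.455) and -0.13 for ASMT (permutation p = 0.609, adjusted p = 0.670, rho -0.011, p = 0.969). Without horses enr_469 and enr_646 it was -0.18 and -0.23. This relation was chosen after the values were seen.

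For platelets, 2 of 8 genes could be named, with 6 probes. ITGA2B, a subunit of the platelet fibrinogen receptor, was well above background on 19 arrays, and the log2 signal summed over the platelet probes was 8.13 ± 0.42 (SD, n = 9) for control and 8.27 ± 0.44 (SD, n = 10) for EE-treated horses. Control horse imp_650 stood apart at 9.06, where the next control horse had 8.35, which made the difference of 0.14 smaller. Among EE-treated horses enr_642 was highest at 9.01, where the next had 8.68, which made that difference larger. ITGB3, its partner subunit, was well above background on 1 array or fewer with each of its 5 probes. For monocytes, 2 of 5 genes could be named, with summed log2 signals of 13.50 ± 0.46 (SD, n = 9) and 13.77 ± 0.46 (SD, n = 10). The sum follows its brightest probe, that of CD14, which differed by 0.27 between EE-treated and control horses, while CD68 differed by -0.00074. For T cells 3 of 8 could be named, with 9.68 ± 0.34 (SD, n = 9) and 9.84 ± 0.25 (SD, n = 10), and here CD2, the brightest probe, differed by 0.23, CD28 by 0.14 and IL7R by -0.12. For NK cells 1 of 5 could be named, GNLY, with 8.75 ± 0.57 (SD, n = 9) in control horses and a difference, EE minus control, of 0.35. Red cells were measured by 2 of 9 genes, HBB and SLC4A1, with a summed log2 signal of 11.96 ± 1.73 (SD, n = 9) and 11.94 ± 2.42 (SD, n = 10), and the probes of SLC4A1 were well above background on 1 array or fewer. None of the probes of platelets, monocytes, T cells, NK cells and red cells was called (0 of 18), where 1.82% of all probes were, so that few calls would be expected among so few probes.

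For tissues other than blood, 1 of 7 genes of pineal gland and retina could be named. CRX, a transcription factor of photoreceptors and pineal cells, was well above background on 18 arrays, at 3.40 ± 0.33 (SD, n = 9) for control and 3.79 ± 0.62 (SD, n = 10) for EE-treated horses, and was not called. CRX too took its symbol from the study's list. Of 5 genes of enterochromaffin and mast cells 3 could be named (CHGA, KIT and TPSB2), none of the 8 probes (0 of 8) was called, against 1.82% of all probes, and the summed log2 signal was 4.83 ± 0.50 (SD, n = 9) and 5.18 ± 0.68 (SD, n = 10). Horse enr_642 stood apart at 6.82, where the next EE-treated horse had 5.49, and much of the difference of 0.35 came from it. ALB, the liver gene that could be named of 3, was well above background on 2 arrays, at 1.95 ± 0.67 (SD, n = 9) and 1.99 ± 0.66 (SD, n = 10). None of the 6 B cell genes and of the 6 neuronal genes (0 of each) could be named. The part of any cell type in the difference of HTR1B and ASMT between the groups was not tested.

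The genes most like HTR1B across horses were sought among 1519 named probes that were well above background on 19 arrays, by r over 19 horses after subtracting the group means. The highest were EMX1, a homeobox factor (r = 0.92), PELI1, a ubiquitin ligase of Toll-like receptor signalling (0.92), CCDC78 (0.92), C16orf72 (0.92) and KDELR3, which returns proteins to the endoplasmic reticulum (0.92). The most opposed were TBC1D30 (-0.74), TICAM2, an adaptor of Toll-like receptors (-0.73), and FAM76A (-0.68). EMX1 had a log2 signal of 7.59 ± 0.45 (SD, n = 9) for control and 8.20 ± 0.31 (SD, n = 10) for EE-treated horses, and TBC1D30 had 5.18 ± 0.30 (SD, n = 9) and 4.65 ± 0.37 (SD, n = 10). The ASMT probe ranked at 128 in this order, with r = 0.67, and the median over the named probes was 0.048. Of all 24441 probes well above background on 19 arrays, 4.44% had a higher r with HTR1B than ASMT had.

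For ASMT the most alike were 3 probes of OTUB1, a deubiquitinase (r = 0.85, 0.84 and 0.83), NFYC, a subunit of the transcription factor NF-Y (0.84), and HAND1, a transcription factor of heart development (0.83). The most opposed were LTN1, a ubiquitin ligase of stalled ribosomes (-0.71), PIKFYVE, a lipid kinase (-0.69), and OGT, which attaches N-acetylglucosamine to proteins (-0.67). The OTUB1 probe A_69_P010798 had a log2 signal of 11.85 ± 0.31 (SD, n = 9) for control and 12.24 ± 0.27 (SD, n = 10) for EE-treated horses, and LTN1 had 6.17 ± 0.21 (SD, n = 9) and 5.78 ± 0.29 (SD, n = 10). HTR1B ranked at 97 in this order, the median over the named probes was 0.079, and 1.58% of all 24441 probes had a higher r with ASMT. Apart from TICAM2, NFYC and OGT, these genes took their symbols from the study's lists and were thus themselves chosen for a difference between the groups, and the coefficients describe only how alike the probes varied within groups.

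In the horse assembly TB-T2T, used for names and order only, HTR1B lies on chromosome 10 between IMPG1 and MEI4, and ASMT on chromosome X between AKAP17A and DHRSX. None of the 3 nearest genes on either side of each (0 of these) could be paired with a probe, so that the neighbours of HTR1B and ASMT were not analysed here.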

How the data were processed

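Blood RNA of 19 horses was measured on 1 array each. The authors deposited the scanner output, with the background-corrected intensity of each spot from Feature Extraction (version 10.7.3.1 per the file headers, 9.1 per the submitters' processing notes), and a table of normalized log2 values; for HTR1B and ASMT the deposited log2 values lay within 0.000478 of those computed here. Outlier spots were left out, spots of a probe averaged, and 43384 probes fitted with limma 3.58.1 (lmFit and eBayes) in R 4.3.3, with Benjamini-Hochberg adjustment over all probes. Python 3.11.15 with numpy 2.4.6 gave the correlations, by exact permutation under 10 horses and 100000 permutations otherwise; both steps were checked on simulated data. Precision is limited by the number of arrays. Of 3275 probes with a RefSeq accession, 1781 were named through the TB-T2T table, and 732 more through the study's lists. The members and lists were chosen with earlier results of these data known. Named genes were HTR1B and ASMT, the listed pathway genes (those called, those at background and the brightest by role), and the 5 probes most like and the 3 most opposed to each. Alternatives were other scalings, the deposited values, outlier spots kept, normexp on the median signal (offset 50; 30 spots with very bright local background left out, all on 4 EE arrays), slide, sex and brightness in the fit, a filter on dim probes, the random-variance test, a stricter threshold and each horse left out. The unscaled signal, the arrays of scan 1 alone, brightness in the correlation and adjustment over the correlations without it were added after seeing the data.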

Additional observations from a re-analysis of the deposited data

Results flagged for a closer look

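Each group of horses was examined for a single horse far from the others, for HTR1B, ASMT, the listed pathway probes whose levels were given, the probes most like or most opposed to them and 1 probe of S100A12. In 0 of these 48 groups did the gap of the highest or lowest horse to the next exceed the 95% critical value of Dixon's ratio, where chance alone gives about 5%. The other cell markers were not part of this check, so its result does not extend to the horses named next. Among EE-treated horses, enr_642 had the highest enterochromaffin and mast cell signal, 6.82 (next 5.49), and enr_646 the lowest CRX signal, 2.28 (next 3.41). Among control horses, imp_650 had the highest platelet signal, 9.06 (next 8.35). The interaction of sex and treatment did not pass the test for HTR1B or ASMT, and its intervals were wide.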

How the results depend on the processing

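Under 11 alternatives and with each horse left out, both genes kept a higher mean in EE-treated horses: HTR1B by 0.31 to 0.53 (0.43 to 0.56 with a horse left out), ASMT by 0.27 to 0.49 (0.42 to 0.49). Both genes were chosen by this same difference on the same arrays, so the kept sign is a description and no test. Without scaling HTR1B fell to 0.31 and ASMT to 0.27, by construction, since EE arrays were dimmer than control arrays. Both intervals then spanned both signs, from -0.062 to 0.68 for HTR1B and from -0.031 to 0.58 for ASMT.

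The male minus female difference of HTR1B turned to -0.0064 under quantile normalization, -0.021 with centring on the median, -0.013 with normexp, -0.13 with slide as a block and -0.067 on scan 1 alone, was 0.19 without scaling, and lay between -0.050 and 0.052 with a horse left out; that of ASMT turned to 0.034 without scaling and lay between -0.19 and -0.13. The interaction turned to 0.10 for HTR1B and 0.12 for ASMT without scaling and to 0.030 for ASMT with slide as a block, where that of HTR1B was -0.35, and lay between -0.17 and 0.059 for HTR1B and between -0.12 and 0.020 for ASMT with a horse left out. None of these passed an adjusted p under 0.05, and the cause was not tested.

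Over 19 horses the correlation lay between 0.56 and 0.85 under 11 alternatives and between 0.62 and 0.74 with a horse left out. Its p-values on scaled signals test against 0 and do not allow for the brightness that scaling subtracts from both genes. In the control group it was 0.66 with centring on the median, 0.23 without scaling and 0.44 with brightness regressed out, with an unadjusted permutation p of 0.0599, 0.549 and 0.239, and 0.69 to 0.83 with a horse left out (0.70 without imp_477 and 0.69 without imp_474, where p was 0.0576 and 0.0594); adjusted over the 5 correlations without brightness, 0.76 had an adjusted p of 0.0485 in place of 0.0711. In the EE-treated group it was 0.81 with normexp and 0.89 without scaling, and 0.44 to 0.77 with a horse left out (0.77 without enr_646). The cause was not tested.

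Of all probes, 789 were called between the groups, against 374 without scaling (22 higher in EE, 352 lower), 457 with brightness as a covariate (250 and 207) and 194 at the stricter threshold, and 501 (without control horse imp_477) to 1039 with a horse left out. With normexp 629 were higher and 104 lower. At an adjusted p under 0.05, 0 probes in limma became 7 with normexp and 2 among brighter probes alone (the dim filter), and 0 to 3 with a horse left out (3 without control horse imp_650, 1 without imp_472). The 23 probes called between the sexes became 14 with normexp and 15 with slide as a block and on scan 1, and the 0 of the interaction became 3 under quantile normalization and on scan 1, 2 without scaling and with brightness, and 2 without control horse imp_645. Of the listed probes, the 1 called became 2 with normexp, and 0 without scaling, with sex or brightness as a covariate, on scan 1 and without any 1 of 13 horses; with a horse left out it was 0 to 1. The list median kept its sign, between 0.021 without scaling and 0.33 with the dim filter. That filter left 5 of the listed probes, and a probe could pass it through 1 group alone. HTR1A probe A_69_P000511 did so, being well above background on 7 control and 10 EE arrays. Its own difference was 0.33, so nothing is read from that value. The cause was not tested.

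No paired analysis was possible because the groups share 0 horse numbers. This concerns pairing by horse; slide was used as a block. The planned normexp on the mean signal used the median signal instead, since no mean signal was analysed here. HTR1B and ASMT each rested on 1 dim spot per array, and a correlation between probes of a gene was not possible.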
